A study of Mus musculus with 4 samples.

Results

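The genes described here are 8 genes of the red cell lineage: Hba-a1, Hba-a2, Hbb-bs, Hbb-bt, Alas2, Slc4a1, Klf1 and Ermap. They were taken by symbol from the 41342 named genes of the gene count table, after their loss from resting to LPS-activated libraries had been seen in the same libraries. That loss is therefore given as a description, without a test. All 8 passed the filter on low values (a mean of 50 counts or more per library), as did 11286 genes in all.

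Total RNA came from CD43-depleted splenocytes of mice of the 129 strain, a preparation enriched for B cells by removing most cells that carry CD43. Markers of other cells were also found in it, as given below, so "cells" of a group means the whole preparation. ΔleftPAL mice lacked the fragment of the IgH 3'RR from hs3a to hs1,2, and ΔIRIS mice kept every 3'RR enhancer, with hs3a inverted, but lacked the inverted repeats between hs3a and hs1,2. Each genotype gave 1 resting library from fresh cells and 1 LPS-activated library, made after 48 h of culture in LPS (5 μg/ml), which activates B cells. The labels describe a pool of cells from 4 animals per genotype, while the study's own text describes the pooling in other ways, and males 8 to 12 weeks old are named for the RNAseq. Fresh cells went through a Lympholyte gradient and CD43 selection, and cultured cells went over the gradient a further time. Libraries of wt mice were not analysed here.

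Each group was 1 library, so no difference below has a replicate check and no p-value is given. The 95% exact intervals cover counting error only, and a comparison of a pair of libraries does not stand for the genotypes or for the treatment. Libraries held between 23621743 and 29778717 gene counts. Levels are given as CPM, the counts scaled to library size by edgeR's TMM method, and the floor of 3 counts lay between 0.102 and 0.123 CPM. Mitochondrial ribosomal RNA took between 16.02% and 16.85% of the counts in 3 libraries and 21.8% in resting ΔIRIS cells. The B cell list was present in every library, with a summed level between 2760 and 5526 CPM over its 10 markers.

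Red cells develop from nucleated erythroblasts, which fill with haemoglobin, lose the nucleus to become reticulocytes and then lose their remaining RNA. The mouse spleen makes red cells, and its red pulp also filters old ones from blood. Haemoglobin joins a pair of α-globin chains to a pair of β-globin chains around haem. Hba-a1 and Hba-a2 code for the α chain and Hbb-bs and Hbb-bt for the adult β chain. Alas2 is the erythroid form of the enzyme that starts haem synthesis, Slc4a1 is band 3, the anion exchanger of the red cell membrane, Klf1 is an erythroid transcription factor that binds CACCC boxes, and Ermap is an erythroid membrane protein of the immunoglobulin family. Resting and cultured B cells do not use these genes as a rule, and in bulk RNA fewer cells of a type cannot be told apart from less RNA per cell.

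Promoters are shown because these genes moved together and because the copies of each globin pair are hard to tell apart. RefSeq on GRCm38.p6 matched 7 of the 8 genes, and Slc4a1 is only named. Each sequence is the 250 bases before the RefSeq start, read 5′ to 3′ on the gene's strand. Capitals mark a GATA box (the word AGATAA or TGATAA, also with G as last letter), a CACCC box, a CCAAT box or a TATA box (the word TATAA), where the name of the CACCC and CCAAT boxes is the word searched, each on both strands. Boxes that overlap run together in the capitals. The windows are Hba-a2 at chr11:32296242-32296491 on the plus strand, Hbb-bs at chr7:103827929-103828178 and Hbb-bt at chr7:103813924-103814173 on the minus strand, Alas2 at chrX:150547167-150547416 and Klf1 at chr8:84901732-84901981 on the plus strand, and Ermap at chr4:119189996-119190245 on the minus strand. The Ensembl model used for the counts starts several of these genes farther upstream, inside the window.
Hba-a2: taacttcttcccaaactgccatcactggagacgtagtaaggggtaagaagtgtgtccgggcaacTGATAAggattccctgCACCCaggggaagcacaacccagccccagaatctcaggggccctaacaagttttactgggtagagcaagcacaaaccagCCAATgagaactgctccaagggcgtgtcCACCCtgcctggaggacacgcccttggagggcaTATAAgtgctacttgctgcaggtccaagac
Hbb-bs: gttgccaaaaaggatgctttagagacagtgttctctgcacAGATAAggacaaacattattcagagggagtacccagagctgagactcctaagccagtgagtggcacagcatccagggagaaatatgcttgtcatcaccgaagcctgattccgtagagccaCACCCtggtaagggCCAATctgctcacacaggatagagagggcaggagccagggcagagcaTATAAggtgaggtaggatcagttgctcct
Hbb-bt: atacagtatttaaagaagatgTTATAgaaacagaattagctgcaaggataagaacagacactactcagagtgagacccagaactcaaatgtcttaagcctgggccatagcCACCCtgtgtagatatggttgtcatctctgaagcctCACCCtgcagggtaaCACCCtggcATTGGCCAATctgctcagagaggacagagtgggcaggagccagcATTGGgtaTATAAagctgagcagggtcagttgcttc
Alas2: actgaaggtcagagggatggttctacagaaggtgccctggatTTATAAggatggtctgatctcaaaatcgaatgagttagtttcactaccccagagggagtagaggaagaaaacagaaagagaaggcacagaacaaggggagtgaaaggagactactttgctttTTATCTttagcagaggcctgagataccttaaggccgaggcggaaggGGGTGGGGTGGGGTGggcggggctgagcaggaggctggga
Klf1: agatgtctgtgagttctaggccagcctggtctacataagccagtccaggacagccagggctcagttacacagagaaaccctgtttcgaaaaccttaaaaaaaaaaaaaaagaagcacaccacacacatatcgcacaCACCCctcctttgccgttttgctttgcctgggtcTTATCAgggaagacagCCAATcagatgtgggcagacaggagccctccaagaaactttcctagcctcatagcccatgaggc
Ermap: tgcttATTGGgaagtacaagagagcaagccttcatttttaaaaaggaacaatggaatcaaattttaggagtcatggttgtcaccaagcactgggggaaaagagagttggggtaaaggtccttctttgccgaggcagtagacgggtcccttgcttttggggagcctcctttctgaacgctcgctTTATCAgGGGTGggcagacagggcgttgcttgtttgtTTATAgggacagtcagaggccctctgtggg

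The Hba-a1 window at chr11:32283422-32283671 aligned with that of Hba-a2 over 247 bases with 0 mismatches, shifted by the choice of start. The Hbb-bs and Hbb-bt windows shared 75.2% of 242 aligned bases. A CACCC box stood in all 7 windows and in 52% of 32851 promoter windows of the same length. A GATA box stood in 6 of the 7, Hbb-bt being the one without, and in 26.5% of all windows. A CCAAT box was in every window but that of Alas2 (33.8% of all windows), and a TATA box in every window but that of Klf1 (22.8% of all windows). The TATA matches of Alas2 lay far from the start, at 208 and 207 bases. That of Ermap, at 30 bases, was the word on the other strand, read as TTATA on the gene's strand. In Hbb-bs the CACCC box lay 90 bases, the CCAAT box 76 bases and the TATA box 29 bases before the start. Among its matches Hbb-bt had some at nearly the same places, CACCC at 104 and 89, a CCAAT box at 75 and a TATA box at 28 bases. A match is a run of letters only, and no factor was measured here.

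Globin RNA was abundant in both resting libraries and close to absent after culture. Summed over the 4 globin genes, which does not depend on how reads were split between copies, it took 4.203% (95% Clopper-Pearson interval 4.195 to 4.211%) of all gene counts in resting ΔleftPAL cells and 2.84% (2.83 to 2.85%) in resting ΔIRIS cells. The LPS-activated libraries held 0.00558% (0.00531 to 0.00586%) and 0.0120% (0.0116 to 0.0124%). On the TPM scale, which divides by transcript length, the globin genes made up 10.6% and 6.98% of the resting libraries and 0.0125% and 0.0260% of the LPS-activated ones. Hbb-bs ranked 5 and Hba-a1 ranked 7 by CPM among all genes of both resting libraries. In summed CPM, globin RNA was 706-fold lower after LPS culture in ΔleftPAL cells and 230-fold lower in ΔIRIS cells.

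**Figure D1:**
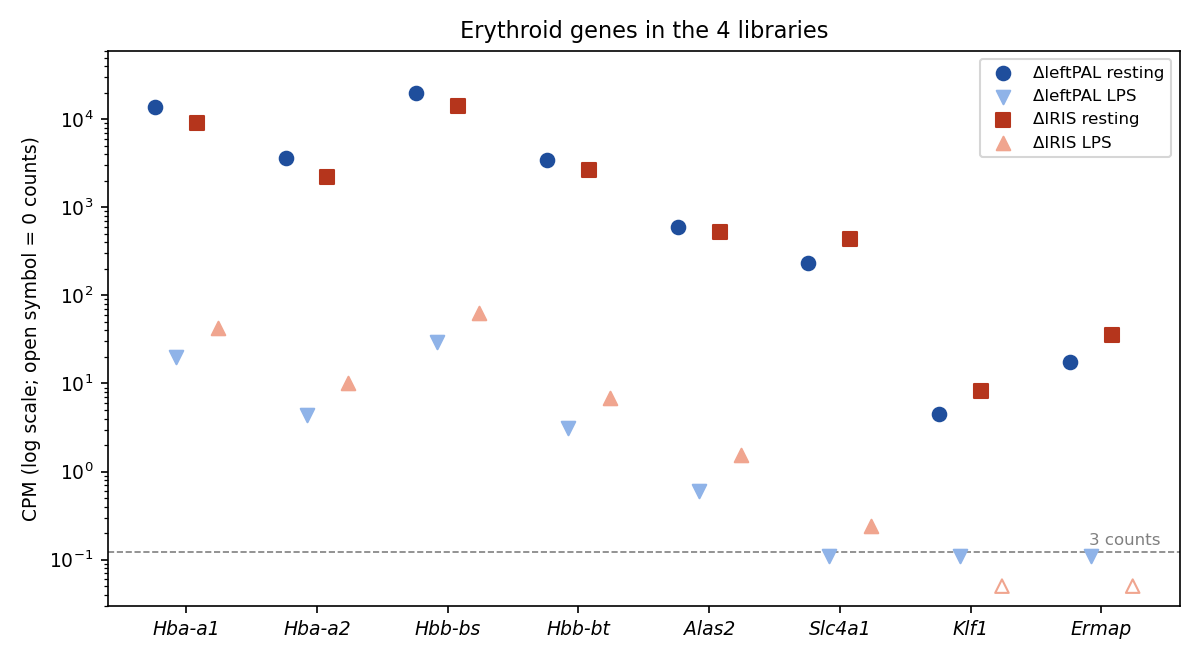
CPM of the 8 erythroid genes on a log scale, 1 point per library, with open symbols for libraries with 0 counts and a dashed line at 3 counts in resting ΔleftPAL cells. Every gene is far higher in both resting libraries, and the resting ΔleftPAL point is above the resting ΔIRIS point for the 4 globin genes and Alas2 but below it for Slc4a1, Klf1 and Ermap.

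The α-globin gene Hba-a1 (ENSMUSG00000069919, chr11:32283511-32284465, plus strand, 3 exon blocks) had 339099 and 262454 counts in resting ΔleftPAL and ΔIRIS cells and 545 and 1241 counts after LPS culture, or 13883, 9028, 20.2 and 42.3 CPM. Its copy Hba-a2 (ENSMUSG00000069917, chr11:32296489-32297298, plus strand) had 88886 and 64350 counts at rest and 117 and 297 counts after LPS, or 3639, 2213, 4.34 and 10.1 CPM. Both genes were highest in resting ΔleftPAL cells and lowest in LPS-activated ΔleftPAL cells. After LPS culture 0.146% (0.134 to 0.158%) of the resting Hba-a1 level was left in ΔleftPAL and 0.469% (0.443 to 0.496%) in ΔIRIS cells. For Hba-a2 it was 0.119% (0.0987 to 0.143%) and 0.458% (0.407 to 0.513%).

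The adult β-globin gene Hbb-bs (ENSMUSG00000052305, chr7:103826534-103828096, minus strand, 3 exon blocks) was the most abundant of the 8, with 479384 and 411542 counts at rest and 804 and 1841 counts after LPS, or 19627, 14156, 29.8 and 62.8 CPM. Its neighbour Hbb-bt (ENSMUSG00000073940, chr7:103812524-103813996, minus strand) had 85221 and 76819 counts at rest and 84 and 199 counts after LPS, or 3489, 2642, 3.12 and 6.79 CPM. The order of the libraries was that of the α-globin genes. The level left after LPS was 0.152% (0.142 to 0.163%) of rest for Hbb-bs in ΔleftPAL and 0.444% (0.424 to 0.464%) in ΔIRIS cells. Hbb-bt kept less, with 0.0894% (0.0713 to 0.111%) and 0.257% (0.222 to 0.295%), and its interval lay below that of Hbb-bs in each genotype.

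The haem synthesis gene Alas2 (ENSMUSG00000025270, chrX:150547375-150570638, plus strand, 11 exon blocks) had 14660 and 15108 counts at rest and 16 and 45 counts after LPS, or 600.2, 519.7, 0.594 and 1.54 CPM. Its resting libraries were close to each other, and both LPS-activated libraries were far below them. In ΔleftPAL cells 0.0990% (0.0565 to 0.161%) of the level was left, and in ΔIRIS cells 0.295% (0.215 to 0.396%).

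The band 3 gene Slc4a1 (ENSMUSG00000006574, chr11:102348824-102366203, minus strand, 25 exon blocks) had 5718 counts in resting ΔleftPAL and 12817 in resting ΔIRIS cells, or 234.1 and 440.9 CPM. LPS culture left 3 and 7 counts, or 0.111 and 0.239 CPM. Unlike the globin genes, it was higher at rest in ΔIRIS cells. The level left was 0.0476% (0.00981 to 0.139%) in ΔleftPAL and 0.0542% (0.0218 to 0.112%) in ΔIRIS cells, with intervals that overlap.

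The factor gene Klf1 (ENSMUSG00000054191, chr8:84901928-84905295, plus strand, 3 exon blocks) was the lowest of the 8, with 109 and 241 counts at rest, or 4.46 and 8.29 CPM, and 3 and 0 counts after LPS. Ermap (ENSMUSG00000028644, chr4:119175457-119190011, minus strand, 13 exon blocks) had 425 and 1024 counts at rest, or 17.4 and 35.2 CPM, and 3 and 0 counts after LPS. Both were at or under the floor in the LPS-activated libraries. In ΔleftPAL cells 2.495% (0.507 to 7.49%) of Klf1 and 0.640% (0.131 to 1.88%) of Ermap was left. In ΔIRIS cells, against the floor of 3 counts in the LPS-activated library, Klf1 was at least 81.0-fold lower and Ermap at least 344-fold lower in the gene counts. The Ermap bound did not hold in the kallisto tables, where Ermap went from 1125 to 40.1 estimated counts and from 22.0 to 1.196 TPM. In ΔleftPAL cells Ermap went from 511.7 to 68.6 estimated counts there. That is a log2 ratio of -2.92, against -7.29 in the gene counts.

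**Figure D2:**
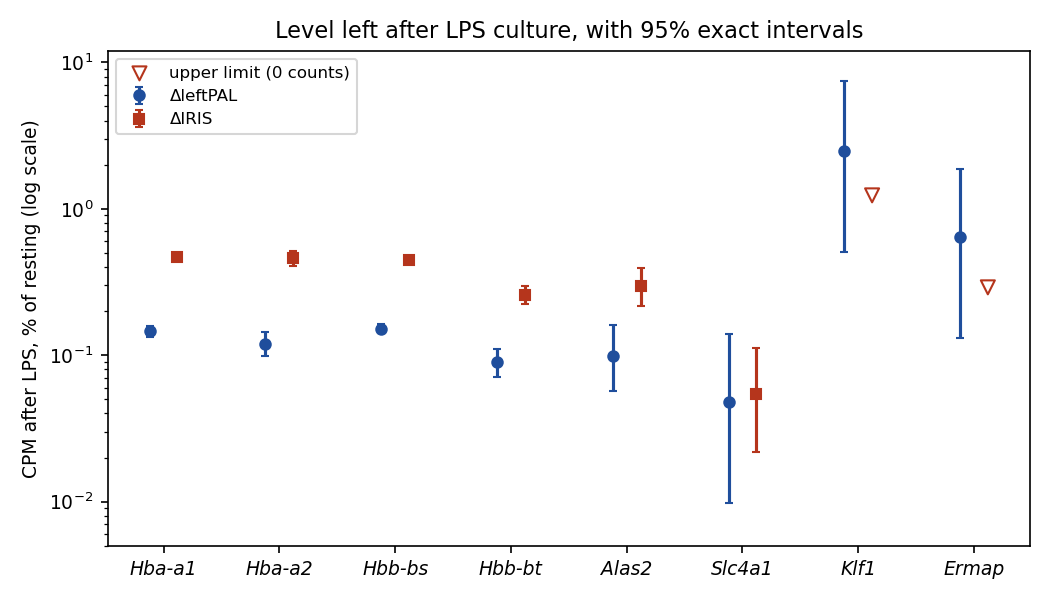
CPM after LPS culture as a percentage of the resting CPM on a log scale for each gene and genotype, with 95% exact intervals for counting error and open triangles for the upper limit where the LPS-activated library had 0 counts. The 4 globin genes and Alas2 have a higher percentage in ΔIRIS cells with intervals apart from ΔleftPAL, whereas the Slc4a1 intervals overlap at 0.0476% and 0.0542%.

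On the log2(CPM + 0.5) scale, which understates the change of low genes, all 8 genes were at least 2-fold lower after LPS culture in both genotypes. At least 2-fold lower were 15.5% of all genes tested in ΔleftPAL and 17.3% in ΔIRIS cells, and since the genes were chosen on this contrast nothing is read from their count. At least 16-fold lower were 7 of the 8 in ΔleftPAL (1.13% of all genes), Klf1 being the exception, and 8 of the 8 in ΔIRIS cells (1.87% of all genes). At least 64-fold lower were 6 and 7 of the 8, against 0.23% and 0.328% of all genes. The median change over all genes was 0.12 and 0.13 on this scale. In ΔleftPAL cells Hbb-bt, Hba-a2, Hba-a1, Hbb-bs, Alas2 and Slc4a1 held ranks 1 to 6 of the most lowered of the 11286 genes, whereas Ermap held rank 59 and Klf1 rank 295. In ΔIRIS cells Slc4a1 held rank 1, Hbb-bt rank 3, Alas2 rank 6, Hbb-bs rank 8, Hba-a1 rank 11, Hba-a2 rank 12, Ermap rank 34 and Klf1 rank 190. The rule was a list of names with no threshold.

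**Figure D3:**
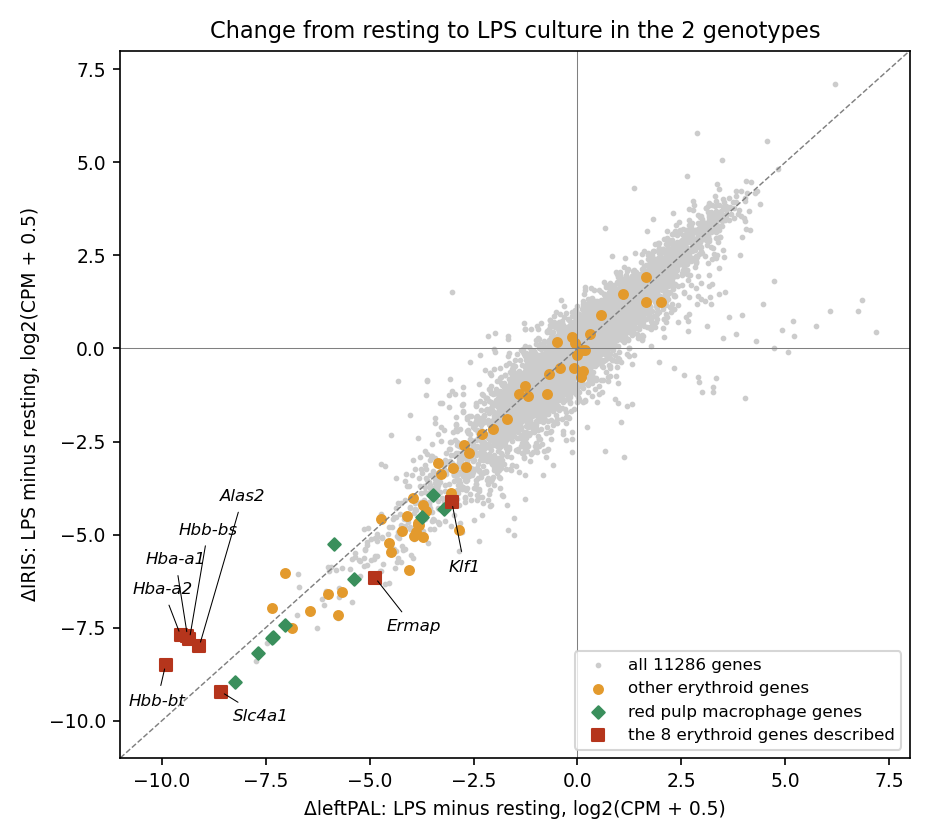
Difference LPS minus resting in log2(CPM + 0.5) in ΔleftPAL (horizontal) and ΔIRIS cells (vertical) for 11286 genes, with the 8 erythroid genes, other erythroid genes and red pulp macrophage genes marked, and a dashed line of equality. The globin genes and Alas2 lie above the line, being less lowered in ΔIRIS cells, and Slc4a1, Ermap and Klf1 lie below it, on 7 counts or fewer after LPS, where the added 0.5 sets the position; without it Slc4a1 kept 0.0476% and 0.0542%.

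The resting libraries did not share a single erythroid ratio. In resting ΔIRIS relative to resting ΔleftPAL cells, the globin genes were lower, at 0.608 (0.602 to 0.614) for Hba-a2, 0.650 (0.647 to 0.654) for Hba-a1, 0.721 (0.718 to 0.724) for Hbb-bs and 0.757 (0.750 to 0.765) for Hbb-bt. Alas2 was closer to equal, at 0.866 (0.846 to 0.886). Slc4a1, Ermap and Klf1 were higher, at 1.88 (1.83 to 1.94), 2.02 (1.81 to 2.27) and 1.86 (1.48 to 2.35). The highest bound of the globin genes was thus below the lowest bound of Slc4a1, Ermap and Klf1. On the log2(CPM + 0.5) scale 0 of the 8 were at least 2-fold lower and 0 at least 2-fold higher, where 1.02% and 1.83% of all genes were. Ermap was at the border of that rule, and its call depends on the scaling. Counting intervals at these depths are narrow, and among all genes tested 30.3% had an interval above 1 and 27% below 1 in this comparison.

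Per 1000 globin counts, a measure that no library scaling enters, resting ΔleftPAL cells held 14.8 Alas2 counts and resting ΔIRIS cells 18.5. Slc4a1 had 5.76 and 15.7, Ermap 0.428 and 1.26, and Klf1 0.110 and 0.296. After LPS culture Alas2 had 10.3 and 12.6, and Slc4a1 1.94 and 1.96. Klf1 and Ermap each had 1.94 in ΔleftPAL cells, above their resting values but from 3 counts each, and 0 in ΔIRIS cells. The Slc4a1 values after culture rest on 3 and 7 counts. In ΔleftPAL cells the interval of its level left (up to 0.139%) overlaps those of Hba-a1 (from 0.134%), Hba-a2 and Hbb-bt. It lies just below that of Hbb-bs (from 0.142%). In ΔIRIS cells its interval (up to 0.112%) lies below those of the globin genes, the lowest of which is that of Hbb-bt (from 0.222%).

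After LPS culture the order of the genotypes was the reverse for globin. LPS-activated ΔIRIS cells held 2.09 times (1.89 to 2.32) the Hba-a1 level of LPS-activated ΔleftPAL cells, 2.33 times (1.88 to 2.92) that of Hba-a2, 2.10 times (1.94 to 2.29) that of Hbb-bs and 2.18 times (1.68 to 2.84) that of Hbb-bt. The Hbb-bt difference depended on the table, with a log2 ratio of 1.12 in the gene counts, 2.10 in kallisto estimated counts and 1.99 in kallisto TPM. Alas2 was 2.59 times (1.433 to 4.8995) as high. For Slc4a1 the ratio was 2.14 (0.490 to 12.9), an interval that includes 1, and Klf1 and Ermap were at or under the floor in both libraries. On the log2(CPM + 0.5) scale 4 of the 8, the globin genes, were at least 2-fold higher in ΔIRIS cells, against 0.567% of all genes, and 0 were at least 2-fold lower, against 1.41%. Those 4 calls lie near the 2-fold line and are counted differently with another prior, scaling or table. Summed, globin RNA was 0.690 times (0.688 to 0.692) the ΔleftPAL level at rest and 2.12 times (2.00 to 2.25) after LPS.

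In the reference genome both globin pairs are near-identical in coding sequence, so values of single copies are uncertain. The coding sequences of Hba-a1 and Hba-a2 differ at 1 of 426 bases, and those of Hbb-bs and Hbb-bt at 1 of 441 bases in the C57BL/6J reference, while the mice were of the 129 strain. In the gene counts the ratio of Hba-a2 to Hba-a1 was 0.262 and 0.245 at rest and 0.215 and 0.239 after LPS, in ΔleftPAL and ΔIRIS cells. In the kallisto estimated counts it was 1.09 and 1.19 at rest and 0.984 and 1.14 after LPS, so which α gene was higher depended on the table. The ratio of Hbb-bt to Hbb-bs was 0.178 (0.176 to 0.179) and 0.187 (0.185 to 0.188) at rest in the gene counts and 0.104 (0.0824 to 0.131) and 0.108 (0.0929 to 0.125) after LPS. The kallisto estimated counts gave 0.163 and 0.200 at rest and 0.0548 and 0.112 after LPS, lower after culture in both genotypes as in the gene counts.

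α-globin and β-globin counts moved nearly in step. The ratio of summed α to summed β counts was 0.758 (0.755 to 0.761) in resting ΔleftPAL, 0.745 (0.673 to 0.825) in LPS-activated ΔleftPAL, 0.669 (0.666 to 0.672) in resting ΔIRIS and 0.754 (0.705 to 0.806) in LPS-activated ΔIRIS cells. Resting ΔIRIS cells had the lowest ratio, with an interval apart from the other three. On the TPM scale, per length, α was 1.02, 1.03, 0.918 and 1.03 times β in the same order.

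Per length, the order of the genes at rest can be read in TPM. Hbb-bs had 44509 and 29650 TPM in resting ΔleftPAL and ΔIRIS cells, Hba-a2 32484 and 20910, Hba-a1 21031 and 12494, and Hbb-bt 8031 and 6725. Alas2 followed with 421.5 and 360.9 TPM, Slc4a1 with 76.4 and 140.3, Ermap with 12.2 and 22.0, and Klf1 with 4.52 and 7.73. The order was the same in both resting libraries, with the α pair uncertain as above.

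Transcript estimates by kallisto added detail at rest. A retained-intron transcript of Hbb-bs (ENSMUST00000131960) held 29451 of the gene's estimated counts in resting ΔleftPAL cells and 6617 in resting ΔIRIS cells, 6.12% and 1.64% of the gene. The longer Alas2 transcript (ENSMUST00000066337) held 80.4% and 79.1% of that gene at rest, and the shorter one (ENSMUST00000112715) 19.4% and 20.5%. For Ermap the tables differed after LPS, with 68.6 and 40.1 estimated counts where the gene table had 3 and 0. Of these estimated Ermap counts 34.9 and 28.1 went to a transcript annotated as nonsense-mediated decay (ENSMUST00000030396). The level of Ermap left after LPS culture is therefore uncertain.

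Other genes of the red cell programme were taken from a list of 65, of which 64 were found in the table and 54 passed the filter. At least 2-fold lower after LPS culture were 36 of the 54 in ΔleftPAL and 37 in ΔIRIS cells, beside 15.5% and 17.3% of all genes tested, the shares against which the class counts below are also to be read. At least 2-fold higher were 4 in each, beside 20.1% and 21.6% of all genes. The median difference over the 54 was -2.78 and -3.13 in log2(CPM + 0.5), beside 0.12 and 0.13 over all genes. The list was drawn up with earlier results of these data known. Some of its genes passed the filter only through the resting libraries, where they were high. Aqp1, for instance, had 603 and 1332 counts at rest and 0 and 0 after LPS. Passing the filter thus fixed the call of such genes, and these counts and the class counts are given as a description. The classes differed in how many of their genes were lower.

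Genes of the red cell membrane and skeleton were lower in 15 of 17 in each genotype. Epb4.2, the gene of protein 4.2, which binds band 3, had 765 and 1496 counts at rest and 0 and 1 after LPS. The β-spectrin gene Sptb, whose product is part of the membrane skeleton, had 1141 and 2894 counts at rest and 10 and 6 after LPS. Ank1, which links spectrin to band 3, had 599 and 1266 counts at rest and 27 and 6 after LPS. The water channel gene Aqp1 went from 603 and 1332 counts to 0 and 0. The 2 not lower were the glycophorin C gene Gypc, with 443 and 549 counts at rest and 1561 and 2136 after LPS, and Xk, with 6.80 and 7.67 CPM at rest and 6.53 and 8.50 CPM after LPS.

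Of 11 genes of haem synthesis and mitochondrial iron import other than Alas2, 4 in ΔleftPAL and 5 in ΔIRIS cells were at least 2-fold lower and 1 in each was at least 2-fold higher. Their summed level was 1.91-fold and 2.42-fold lower, and their median difference was -0.07 and -0.61 in log2(CPM + 0.5). Fech, which puts iron into haem, went from 171 and 178 CPM to 17.2 and 16.7 CPM. Slc25a37, the mitochondrial iron importer mitoferrin, had 0.153 times (0.142 to 0.164) its resting level after LPS in ΔleftPAL and 0.109 times (0.101 to 0.116) in ΔIRIS cells. Cpox, a later enzyme of haem synthesis, was 4.08 times (3.70 to 4.50) and 2.38 times (2.20 to 2.57) its resting level.

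Among 8 further erythroid transcription factor genes with enough counts, 3 were at least 2-fold lower and 1 was higher in each genotype. Tal1, a factor of early blood cells and erythroblasts, had 214 and 418 counts at rest and 0 and 0 after LPS. Nfe2 had 163 and 329 counts at rest and 2 and 2 after LPS. Gata1, the factor that binds GATA boxes in erythroid cells, was below the filter and had 47 and 119 counts at rest and 0 and 0 after LPS. Gfi1b was higher after LPS, at 2.51 times (1.71 to 3.73) and 3.25 times (2.36 to 4.54) its resting level.

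Of the receptors, the erythropoietin receptor gene Epor had 85 and 129 counts at rest and 0 and 1 after LPS. The transferrin receptor gene Tfrc, which many dividing cells use for iron uptake, was 3.14 times (3.0035 to 3.28) and 2.37 times (2.30 to 2.45) its resting level after LPS. Of 14 genes of red cell enzymes and late maturation, 12 in each genotype were at least 2-fold lower. Car2, a carbonic anhydrase gene, had 0.137 times (0.124 to 0.150) its resting level in ΔleftPAL and 0.0320 times (0.0277 to 0.0369) in ΔIRIS cells. Bpgm, which makes the bisphosphoglycerate that lowers the oxygen affinity of haemoglobin, was 16.05-fold and 16.69-fold lower. Other globin genes were low throughout: Hbq1b had 123 and 116 counts at rest and 1 and 1 after LPS.

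The other erythroid genes at rest were compared with the globin ratios. Of the 54, 34 had an interval of the ΔIRIS to ΔleftPAL ratio above 1, 7 below 1 and 13 spanning 1. Among all genes tested 30.3% had an interval above 1 and 27% below 1. Of the 54 intervals 49 lay above 0.765, the highest bound of a globin gene, as did 70.4% of those of all genes tested. The median ratio of the 54 was 1.26. Of 13 that were at least 16-fold lower after LPS culture in both genotypes, as 1.04% of all genes were, 11 had an interval above 1. They ran from Tspo2 at 1.24 (1.04 to 1.48) and Trim10 at 1.44 (1.35 to 1.54) to Sptb at 2.13 (1.99 to 2.28) and the blood group gene Kel at 2.14 (1.85 to 2.48). Of the 2 below 1, Ube2l6, a ubiquitin-conjugating enzyme gene, was at 0.731 (0.699 to 0.764). Ube2l6 was the one whose interval lay within the range of the globin genes. Slc4a1, Klf1 and Ermap thus had ratios like those of Kel, Rhd (2.03) and Aqp1 (1.86), and the globin genes did not.

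**Figure D4:**
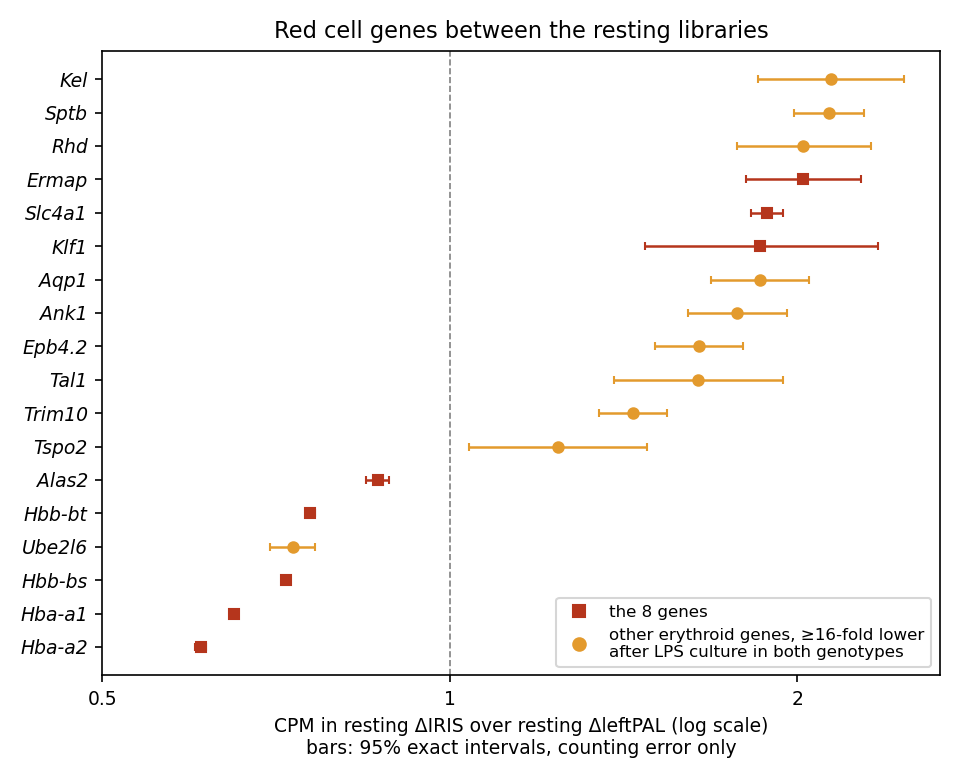
Ratio of CPM in resting ΔIRIS to resting ΔleftPAL cells on a log scale for the 8 genes and 10 of the 13 other erythroid genes at least 16-fold lower after LPS culture in both genotypes, with 95% exact intervals for counting error. The 4 globin genes and Ube2l6 lie between 0.608 and 0.757, Alas2 lies nearer 1, and the other genes lie above 1, up to 2.14 for Kel.

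Markers of other cells that a spleen preparation can hold moved between the libraries as well. The summed red pulp macrophage list was 841 and 1061 CPM at rest and 17.2 and 11.2 CPM after LPS, with 10 of 10 genes at least 2-fold lower in each genotype. Vcam1, an adhesion molecule of these macrophages, had 4752 and 7667 counts at rest and 4 and 1 after LPS, and C1qa, a complement gene, had 1989 and 3163 counts and then 0 and 0. The summed neutrophil and monocyte list was 289.6 and 386.1 CPM at rest and 6.79 and 16 CPM after LPS. At rest this sum was mostly Csf1r (169.0 and 224.7 CPM) and Lyz2 (97.2 and 148.7 CPM). After LPS it was mostly Itgam (5.197 and 15.35 CPM). Itgam went from 321 to 140 counts in ΔleftPAL cells but rose from 304 to 450 counts in ΔIRIS cells. The platelet and megakaryocyte list was 22.5 and 56.9 CPM at rest and 1.56 and 0.648 CPM after LPS, with Ppbp, a platelet chemokine gene, at 103 and 407 counts at rest. The T cell list was 58.3 and 47.9 CPM at rest. Its genes differed there, with Cd3e at 17 and 5 counts, Cd4 at 273 and 496 and Cd8a at 84 and 202. After LPS the list was 20.4 and 18.5 CPM, of which Lck alone was 18.1 and 17.2 CPM. Cd3e, Cd3d and Cd3g were then at 0 counts. The B cell list was 2.00-fold and 1.62-fold lower after LPS. The progenitor list was higher after LPS, going from 22.3 and 42.1 CPM to 43.0 and 47.3 CPM, with Myb higher and Kit lower. The dendritic cell list went from 92.2 and 119.1 CPM to 70.8 and 61.9 CPM. Its gene Flt3 was higher after LPS, with 435 and 760 counts at rest and 1220 and 1055 after LPS.

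Between the resting libraries, ΔIRIS over ΔleftPAL, the summed ratio was 2.53 (2.30 to 2.79) for the platelet list, 1.26 (1.24 to 1.28) for the red pulp macrophage list, 1.33 (1.29 to 1.37) for the neutrophil and monocyte list, 0.822 (0.763 to 0.885) for the T cell list and 0.825 (0.819 to 0.831) for the B cell list. It was 0.374 (0.275 to 0.504) for the NK cell list, whose sum was 5.98 and 2.24 CPM, 1.29 (1.22 to 1.36) for the dendritic cell list, 1.77 (0.765 to 4.45) for the mast cell and basophil list and 1.89 (1.70 to 2.09) for the progenitor list. Within the neutrophil and monocyte list the neutrophil genes S100a8 (3.52 and 0.688 CPM) and S100a9 (5.24 and 0.826 CPM) were lower in ΔIRIS cells. The globin genes moved the other way from the sums of the macrophage and platelet lists. They moved the same way as the sums of the NK, T and B cell lists and as S100a8 and S100a9. Slc4a1, Klf1 and Ermap moved the reverse. Within the T cell list the genes went both ways. Cd4 (11.2 and 17.1 CPM) and Cd8a (3.44 and 6.95 CPM) were higher in resting ΔIRIS cells, and Lck (30.8 and 18.5 CPM) was lower. The part of these cells, and of the higher share of mitochondrial ribosomal RNA in resting ΔIRIS cells, in the erythroid values was not tested.

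**Figure D5:**
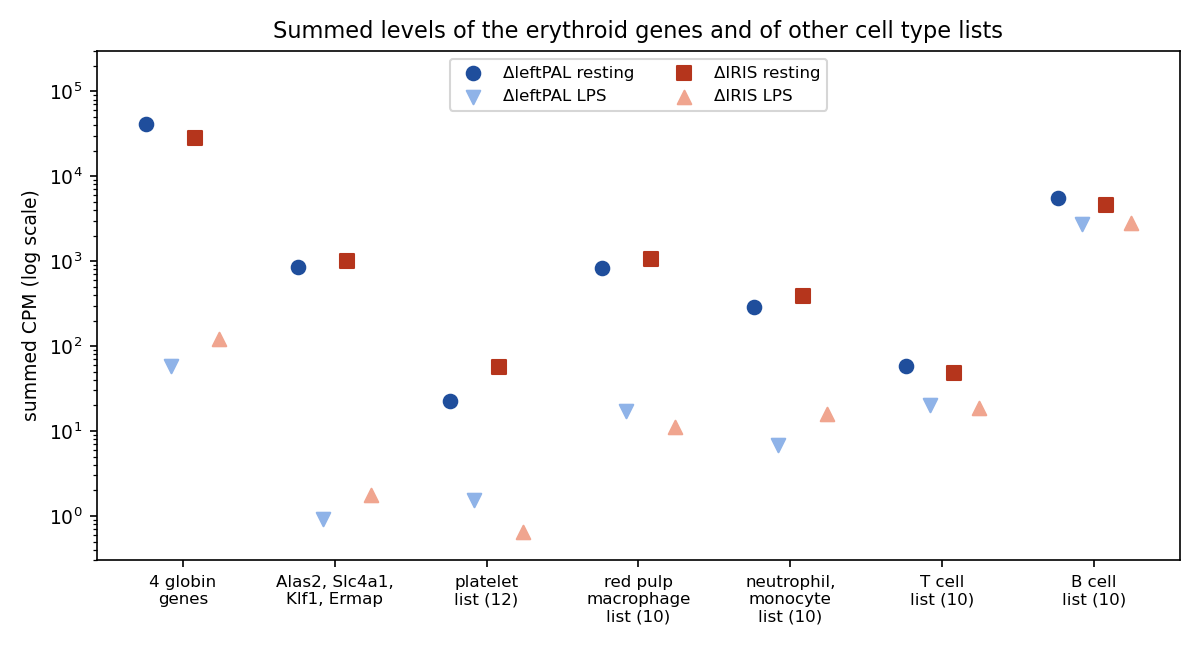
Summed CPM on a log scale, 1 point per library, of the 4 globin genes, of Alas2, Slc4a1, Klf1 and Ermap together, and of marker lists of other cells with the number of genes listed. All sums drawn are lower in the LPS-activated libraries, by 923-fold and 566-fold for Alas2, Slc4a1, Klf1 and Ermap together, 706-fold and 230-fold for globin and 2.00-fold and 1.62-fold for B cell markers, in ΔleftPAL and ΔIRIS cells.

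The genes whose profile over the 4 libraries was nearest to the mean profile of the 8 were sought by the Euclidean distance of centred log2(CPM + 0.5) values. Among the 10 nearest were C1qa, C1qc, Gda, Slc40a1, C1qb, Csf1r, Itgad and Trim10, at distances from 0.519 to 1.12. Of these, C1qa, C1qb, C1qc and the iron exporter gene Slc40a1 belong to the red pulp macrophage list, Csf1r to the neutrophil and monocyte list, and Trim10 to the erythroid lists. The 8 genes themselves lay between 0.902 for Alas2 and 4.195 for Klf1. The mean profile joins the globin genes, lower in resting ΔIRIS than in resting ΔleftPAL cells, with Slc4a1, Klf1 and Ermap, which were higher. C1qa, the nearest, had 81.4 CPM in resting ΔleftPAL and 108.8 CPM in resting ΔIRIS cells, the other way from globin. It had 0 counts in both LPS-activated libraries, where the added 0.5 sets its position. Only 4 libraries enter this measure.

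The nearest protein-coding genes of the 8 that passed the filter, other globin genes aside, differed in direction. Beside Alas2, Pfkfb1 had 67 and 66 counts at rest and 92 and 101 after LPS, and Tmem29 had 163 and 175 and then 341 and 372. Beside Slc4a1, Ubtf had 3119 and 3597 counts at rest and 4834 and 5966 after LPS. On the sides of Klf1, Gcdh had 418 and 418 and then 626 and 721 counts, and Dnase2a, a nuclease gene, 1085 and 1343 and then 504 and 515. Beside Ermap, Zfp691 had 180 and 225 counts at rest and 122 and 115 after LPS. Dnase2a was at least 2-fold lower in both genotypes, with differences of -1.23 and -1.37 in log2(CPM + 0.5), and Zfp691 was lower by less, with -0.65 and -0.90. Each of these was smaller than the difference of every one of the 8, and Pfkfb1, Tmem29, Ubtf and Gcdh were higher after LPS.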

How the data were processed

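Total RNA depleted of ribosomal RNA was sequenced as paired 150 nt reads. Per the labels and the methods, the authors mapped reads with STAR 2.4.0a to mm10 and deposited counts per gene name from featureCounts (Subread 1.4.6-p1, primary alignments, strand-specific, with multimapping reads kept) with the Ensembl release 77 model, not normalized. They also deposited kallisto 0.42.3 estimated counts (expected counts) and TPM values for 88198 transcripts, which were summed per gene here. The row of genes without a name, at most 0.0264% of counts, was left out of sizes. No per-sample column went unused. Which copy a read shared by near-identical globin genes went to is set by these tools.

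Counts were scaled to CPM with edgeR 4.0.16 TMM factors (1.03, 0.970, 1.01 and 0.984 for resting and LPS-activated ΔleftPAL and resting and LPS-activated ΔIRIS cells) in R 4.3.3. Ratios carry 95% Clopper-Pearson intervals from the conditional binomial (Python 3.11.15, scipy 1.17.1). Calls are at least 2-fold on log2(CPM + 0.5) among genes averaging 50 counts or more. The edgeR quasi-likelihood test was not run. A fit with 1 mean per group leaves no residual degrees of freedom, and an additive fit of genotype and LPS, which leaves 1, was not used because the genes were chosen on the LPS contrast. Resting libraries of 11286 genes were simulated with counting error only, without variation between animals, pools or preparations. In them 200 of 200 genes changed 4-fold were called, 0 unchanged genes were, and 1910 of 2000 intervals (95.5%) held the true ratio. These simulated libraries cannot show how often real libraries of the same genotype would differ by 2-fold. The 8 genes and all lists were chosen with earlier results of these data known. Named genes are the 8, the genes of the lists, the nearest protein-coding neighbours and the 10 nearest profiles. Gene positions and coding sequences come from the GENCODE annotation of GRCm38. The promoter window and the TATA box were set after the sequences were seen. Ahsp, a listed gene, was not analysed here, and some listed genes, which stay in the counts over lists, are not reported here by name. Values were recomputed with total counts, with size factors of DESeq2 1.42.0, with TMM without immunoglobulin genes, with both kallisto tables, and with other count minimums, priors and folds.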

Additional observations from a re-analysis of the deposited data

Results flagged for a closer look

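Among the other erythroid genes, the 6 given here lay on opposite sides of 0 in the 2 genotypes, in the difference LPS minus resting of log2(CPM + 0.5), and were taken up for that. With 1 library per group these differences were not tested. Steap3, a ferrireductase of transferrin iron uptake, was at 0.10 in ΔleftPAL and -0.77 in ΔIRIS cells, apart by -0.87, on 34 and 129 counts at rest. Bcl11a, a factor that B cells also use, was at -0.49 and 0.17, apart by 0.65. Lmo2 was at -0.12 and 0.30, apart by 0.42. The gaps of Alad (-0.23), Xk (0.19) and Prdx2 (-0.15) were smaller. None of the 8 erythroid genes was among them.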

How the results depend on the processing

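Of 140 log2 ratios of single genes under other scalings and tables, 140 kept their direction; Klf1 and Ermap have no ratio where a library is at 0. The largest shift was that of Ermap after LPS in ΔleftPAL cells, less lowered by 4.37 in kallisto estimated counts. The counts of genes lower after LPS, of the 8 and of the other erythroid genes, stayed within 1.5 times under each alternative. At rest, the count of the 8 at least 2-fold apart between genotypes went from 0 to 1 with DESeq2 size factors, with TMM without immunoglobulin genes and with a prior of 0.1 CPM. After LPS it went from 4 to 3 with TMM without immunoglobulin genes and to 2 in kallisto TPM. It went to 0 with a prior of 5 CPM, to 7 with a prior of 0.1 CPM and to 0 with 4-fold calls. In kallisto estimated counts the globin share was 5.86% and 3.91% at rest and 0.00749% and 0.0150% after LPS; with globin left out of the total it was 4.39% and 2.92% at rest. In kallisto estimated counts the ratio of Hba-a2 to Hba-a1 was 1.09 at rest and 0.984 after LPS in ΔleftPAL cells, and 1.19 and 1.14 in ΔIRIS cells; that of Hbb-bt to Hbb-bs was 0.163 and 0.0548 in ΔleftPAL and 0.200 in resting ΔIRIS cells; that of α to β was 0.763 in resting ΔleftPAL cells. The cause of these shifts was not tested. No replicate numbers pair the libraries. A paired fit of LPS against rest with genotype as the block, with 1 residual degree of freedom, could have been made and was not run, since the genes were chosen on that contrast. Leaving out a library would empty its group. At this depth Slc4a1, Klf1 and Ermap were at 7 counts or fewer after LPS, too few to compare the genotypes.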

Other observations

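Hbb-bh1, an embryonic β-like globin gene, was higher after LPS in ΔIRIS cells, where the adult globin genes were lower. It had 3 and 3 counts in resting ΔleftPAL and ΔIRIS cells, 4 counts in LPS-activated ΔleftPAL and 59 counts in LPS-activated ΔIRIS cells, or 2.01 CPM in the last. The counts in ΔleftPAL cells are too few to give a direction. The ratio of the LPS-activated libraries, ΔIRIS over ΔleftPAL, was 13.6 (5.02 to 51.4, 95% exact interval for counting error). That ratio was above 1, as were those of the adult globin genes. The embryonic genes Hba-x and Hbb-y had at most 1 count in any library. In LPS-activated ΔIRIS against ΔleftPAL cells, the membrane skeleton genes Sptb and Ank1 had 6 against 10 and 6 against 27 counts.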
